A study of Drosophila melanogaster with 6 samples.

Results

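Segment-polarity genes set up the borders between the repeated units of the Drosophila trunk, and 10 of them were chosen by their CG numbers: engrailed (en), invected (inv), hedgehog (hh), patched (ptc), cubitus interruptus (ci), wingless (wg), gooseberry (gsb), gooseberry-neuro (gsb-n), naked cuticle (nkd) and midline (mid). Of these 10 genes, 9 had a row among the 9073 genes listed, and gsb-n was not analysed here. Messenger RNA was sequenced from whole embryos of the wild-type stock Oregon R, picked at the late blastoderm just before gastrulation. The control group had 3 libraries of water-injected embryos, and the treated group had 3 libraries of embryos that received double-stranded RNAs (dsRNAs) against even-skipped and runt, each at 1 µg/µl. Both groups were collected at 0 to 1 h and 25 °C, injected before cells had formed and aged at 18 °C, with about 50 embryos in a library. The series asks which genes lie under the control of Even-skipped and Runt, both pair-rule proteins. A whole-embryo library is a limit here, since fewer cells that express a gene and less RNA in each of them cannot be told apart, and neither can the position of a stripe.

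The Hedgehog and Wingless signals maintain each other across the parasegment border. Engrailed, a homeodomain factor, marks the cells behind the border, where hh is transcribed. The secreted Hedgehog protein binds its receptor Patched on the cells in front, which releases Smoothened and lets the zinc-finger factor Cubitus interruptus activate targets such as wg and ptc. The secreted Wingless protein in turn maintains en. Pair-rule proteins, Even-skipped and Runt among them, place the first en and wg stripes in the late blastoderm, before this mutual maintenance takes over.

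The members lie in BDGP6 on several chromosomes; the build differs from the dm3 named by the submitters, and no coordinate was converted. The gene en (CG9015) lies at 2R 11524006 to 11528210, and inv (CG17835), at 2R 11474465 to 11509695, is its paralog 14.3 kb away. The gene hh (CG4637) lies at 3R 23128169 to 23141906, ptc (CG2411) at 2R 8649649 to 8665223 and ci (CG2125) at 4 47710 to 57041. The gene wg (CG4889) lies at 2L 7307159 to 7316265, gsb (CG3388) at 2R 25061964 to 25064643, nkd (CG11614) at 3L 19003741 to 19045449 and mid (CG6634) at 2L 5461639 to 5467610. Only ci among the 9 shares exon sequence with another annotated gene, asRNA:CR43957 on the other strand, and reads of the pair cannot be told apart unless counting used strand.

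Reads in genes numbered 23234425 to 49364110 per library. Levels below are normalised counts, which are reads per gene divided by the size factor of the library, and where 3 are given for a group they follow replicates 1, 2 and 3. Water replicate 2 stood apart from the other 5 libraries, with a score of 60.6 on the first principal component (54.7% of the variance) against −27.7 to 5.61. The targets were checked first. Transcripts of run were at 3131, 2220 and 3557 in the water libraries against 1976, 1922 and 1733 with dsRNA, so the dsRNA libraries were all lower. Those of eve were at 2827, 1699 and 3075 against 2922, 2727 and 2325, so the groups overlapped. Its log2 fold change was 0.11 ± 0.23 (SE) with all libraries and −0.16 ± 0.11 without water replicate 2 (limma unadjusted p = 0.194), so its sign turned. That of run was −0.64 ± 0.18 with all libraries (limma unadjusted p = 0.00921, adjusted p = 0.999). Without water replicate 2 it was −0.83 ± 0.10 (limma adjusted p = 0.0521). Neither target passed an adjusted p of 0.05 in these fits. An annotated antisense RNA, asRNA:CR43948, shares exon sequence with eve. Directions below refer to the libraries so labelled.

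Among the 9 members, hh alone was higher in every dsRNA library than in every water library, and no member was lower in every one. With the limma test across all genes, 0 of 9 members passed an adjusted p of 0.05, where 0.011% of all genes did. The unadjusted limma p was under 0.05 for 1 of 9 (hh), against 2.27% of all genes. The same held for 1 of 9 in limma-voom on the reads, against 2.80% of all genes. For comparison, the groups did not overlap with dsRNA higher for 2.99% of all genes, and with dsRNA lower for 3.36%. With 1 of 9 members higher and 0 of 9 lower without overlap, there is no result about the members as a group. Their median log2 fold change was 0.22, with −0.0015 over all genes, and 6 of 9 were above 0, against 49.5% of all genes.

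**Figure D1:**
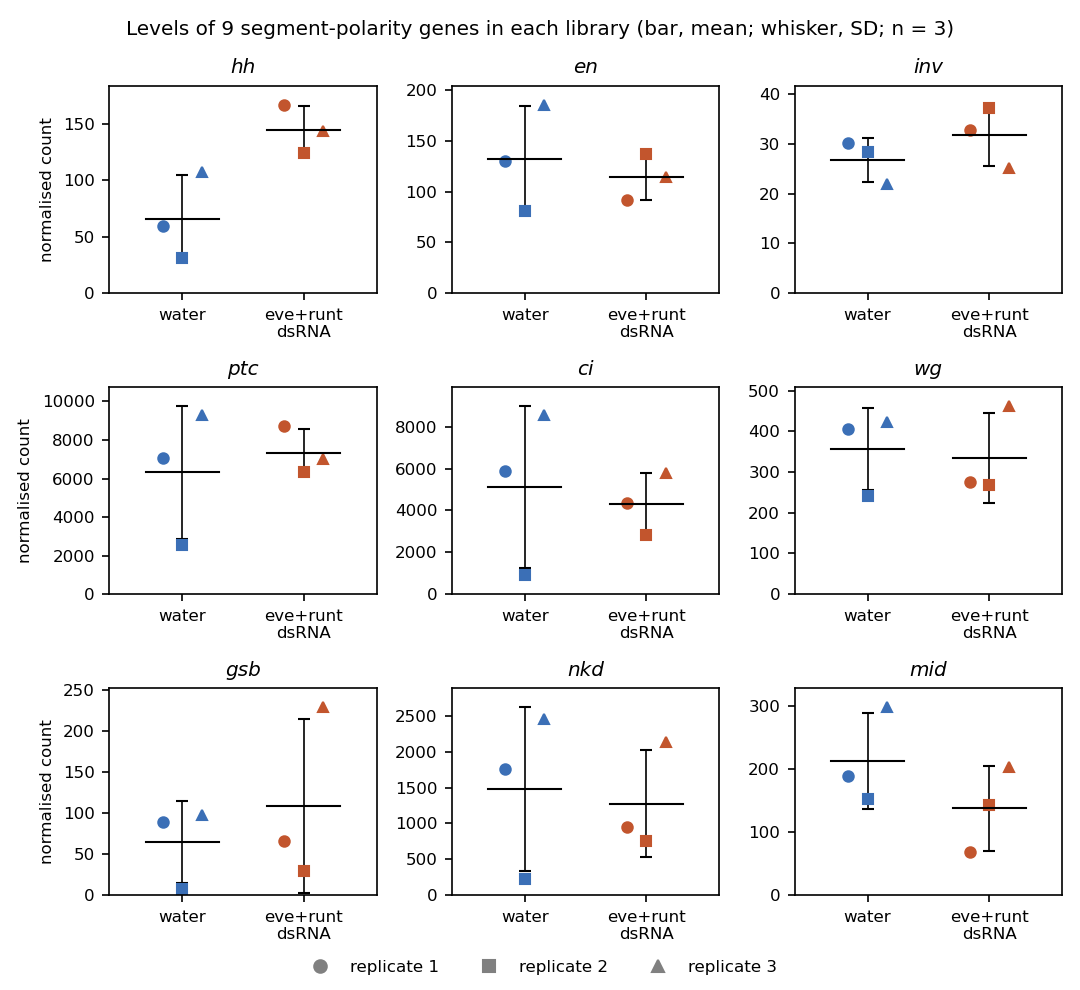
Normalised counts (vertical axis, from 0, a different scale in each panel) of the 9 genes in water and in eve+runt dsRNA libraries; points are libraries, bars are group means and whiskers are SD (n = 3). For hh the dsRNA libraries, at 125 to 167, lie above the water libraries, at 30.9 to 107, while in every other panel the groups overlap.

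The ligand gene hh had 59.7, 30.9 and 107 normalised counts with water and 167, 125 and 144 with dsRNA. All dsRNA values were above the highest water value, and the gap was narrowest between water replicate 3 and dsRNA replicate 2. The mean was 65.9 ± 38.6 with water and 145 ± 21.3 with dsRNA (SD, n = 3 in each group), a ratio of 2.20. The log2 fold change on the log2(normalised count + 1) scale was 1.29 ± 0.44 (SE), with a 95% confidence interval of 0.23 to 2.34. The limma p was 0.0238 unadjusted, at rank 79 of the 9073 genes, and 0.999 adjusted over all of them. The water mean rests on few reads, 79, 24 and 108 in water against 245, 117 and 103 after dsRNA. The 24 reads of water replicate 2 have an exact Poisson interval of 15.4 to 35.7, which covers counting error only. Without water replicate 2, hh still stood higher, at a log2 fold change of 0.84 ± 0.29 (limma adjusted p = 0.891).

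The selector genes of the posterior compartment overlapped between groups. The gene en had 131, 81.1 and 186 normalised counts with water and 92.0, 137 and 115 with dsRNA, so every dsRNA value lay within the water range. The mean was 133 ± 52.3 with water and 115 ± 22.6 with dsRNA (SD, n = 3 in each group), and the log2 fold change of −0.15 ± 0.34 had an interval of −0.95 to 0.66. The interval allows anything from 0.516 to 1.58 times the water level. Its paralog inv had 30.2, 28.3 and 21.8 with water and 32.7, 37.3 and 25.1 with dsRNA. This is a low level, from 18 to 48 reads a library, and the groups overlapped again (log2 0.23 ± 0.27, with an interval of −0.42 to 0.88). Each dsRNA library was above the water library of the same number, by 0.11, 0.38 and 0.19 on the log2 scale, and with the replicate block the limma unadjusted p was 0.384. The gene inv was the only member that was not lowest among the water libraries in replicate 2.

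The receptor gene ptc and the transcription factor gene ci were the members with the most reads. Patched is both the Hedgehog receptor and a target of the pathway. Its gene had 7085, 2557 and 9323 normalised counts with water and 8704, 6332 and 6993 with dsRNA, and the dsRNA values lay between the low and the high water libraries. The log2 fold change was 0.40 ± 0.46 (SE), with an interval of −0.70 to 1.49. Counts of ci were 5864, 911 and 8555 with water and 4374, 2833 and 5766 with dsRNA, again within the water range. The log2 fold change of ci was 0.21 ± 0.81, with an interval of −1.73 to 2.16. Against water replicates 1 and 3 alone, ci was lower in all 3 dsRNA libraries, at a log2 fold change of −0.77 ± 0.29 (limma unadjusted p = 0.0326, adjusted p = 0.891). Without that library the groups did not overlap for 9.64% of all genes with dsRNA lower and for 7.95% with dsRNA higher.

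The ligand gene wg had 407, 241 and 422 normalised counts with water and 275, 267 and 462 with dsRNA. Replicates 1 and 2 after dsRNA were near the low water library and replicate 3 was above all water libraries, so the groups overlapped. The mean was 356 ± 101 with water and 335 ± 110 with dsRNA (SD, n = 3 in each group), and the log2 fold change of −0.09 ± 0.31 had an interval of −0.83 to 0.65. Its neighbours Wnt4 and Wnt6, which encode other Wnt ligands and lie 30.0 kb and 17.4 kb from it, were near the lower limit of the table. Wnt4 had 7.72 to 12.9 in water and 2.79 to 10.2 after dsRNA, while Wnt6 had 5.15 to 10.6 and 4.26 to 9.78.

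The genes gsb and nkd had the widest ranges among the water libraries. The paired-homeodomain factor gene gsb had 89.2, 7.72 and 97.3 normalised counts with water and 66.1, 29.8 and 229 with dsRNA. These stand for 118, 6 and 98 reads in water, and 6 reads have an exact Poisson interval of 2.20 to 13.1. The spread in both groups was wide, and the log2 fold change of 0.87 ± 1.12 had an interval of −1.81 to 3.56. The gene nkd, whose product binds Dishevelled and limits Wingless signalling, had 1763, 224 and 2452 with water and 947, 756 and 2130 with dsRNA (log2 0.22 ± 0.91, with an interval of −1.97 to 2.40). Here dsRNA replicates 1 and 2 lay between the low water library and the other 2 water libraries.

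The T-box factor gene mid had 188, 152 and 298 normalised counts with water and 68.2, 143 and 202 with dsRNA. It was the member with the lowest ratio of means, 0.648, and the groups overlapped. The log2 fold change was −0.70 ± 0.45 (SE), with an interval of −1.77 to 0.37 (limma unadjusted p = 0.164, adjusted p = 0.999). Each dsRNA library was below the water library of the same number, by 1.45, 0.09 and 0.55 on the log2 scale. Among members, hh and inv also kept the same direction in every pair, both higher, and the share over all genes was not counted. The pairing by number was itself taken from these data. With the replicate block mid stood at the same −0.70, with an SE of 0.30 and an interval of −1.49 to 0.09 (limma unadjusted p = 0.0715, adjusted p = 0.898). Its paralog H15, 45.0 kb away, had 1.29 to 3.02 in water and 1.06 to 6.98 after dsRNA.

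**Figure D2:**
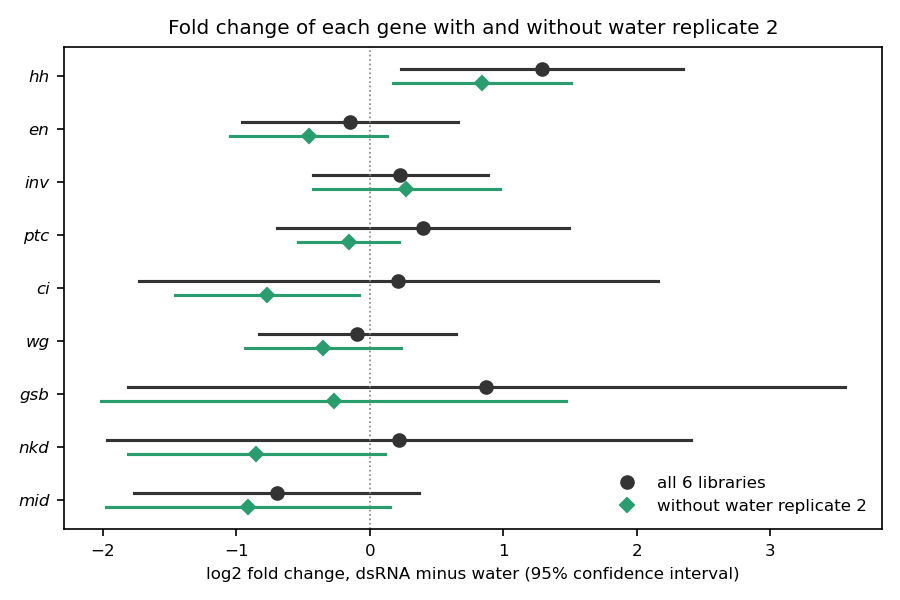
Log2 fold change (horizontal axis, dsRNA minus water) of each gene with its 95% confidence interval, from all 6 libraries (circles) and without water replicate 2 (diamonds). The interval of hh lies above 0 in both, from 0.23 to 2.34 and from 0.17 to 1.50. Once that library is left out, the intervals of ptc, ci, gsb and nkd, among others, narrow and the signs of these genes turn. That of ci then lies below 0, from −1.46 to −0.085. No gene shown passed the adjusted threshold in either fit.

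Levels of the members differed widely between libraries of the same group. In water replicate 2 the count was below both other water libraries for 8 of 9 members, against 42.7% of all genes, and was the lowest of the 6 libraries for 7 of 9, against 31.2% of all genes. The exceptions to the first were inv, and to the second inv and mid. Water replicate 3 was the highest water library for 8 of 9, against 34.5% of all genes. Within water, the highest library was 12.6 times the lowest for gsb, 10.9 times for nkd and 9.39 times for ci. A water range at least as wide on the log2 scale was found for 0.749%, 0.849% and 1.08% of all genes. It was 3.65 for ptc, 3.47 for hh, 2.29 for en, 1.96 for mid, 1.75 for wg and 1.38 for inv. Among the dsRNA libraries the widest ranges were 7.68 times for gsb, 2.97 for mid and 2.82 for nkd, and replicate 3 was the highest for 5 of 9, against 41.4% of all genes.

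The blastoderm genes sna, twi, ftz, Kr and zen were present in all libraries, with summed counts of 18970 to 31188, and other gene groups moved with the library differences. Each gene was centred on its own log2 mean, and the median over the members was then 0.23, −1.31 and 0.64 for the water libraries and 0.18, −0.17 and 0.46 for the dsRNA libraries. For the 9 pair-rule genes, which include the targets eve and run, this median was 0.24, −0.59 and 0.56 with water and 0.08, −0.18 and −0.04 with dsRNA. The summed count of 11 maternally loaded RNAs was 111820 in water replicate 2, 71255 and 72861 in the other water libraries, and 64811 to 86548 after dsRNA. Of the 111820, smg alone made up 75575, and trk went the other way, with its lowest count, 7.72, in water replicate 2. The summed count of 5 genes of cell formation was 187170 in water replicate 2, 246160 and 249300 in the other water libraries, and 204910 to 327740 after dsRNA. Of the 187170, slam alone made up 110290, and nullo went the other way, at 6306 against 5348 and 4558 in the other water libraries. With dsRNA nullo was at 8936, 10176 and 9087, higher in every library. Its log2 fold change was 0.81 (limma adjusted p = 0.627), and 0.93 without water replicate 2 (limma adjusted p = 0.0293). All 5 genes were above 0, with a median log2 fold change of 0.24, and the others overlapped between groups. Without water replicate 2 the median was 0.09, with 4 above 0 and 1 below. The centred median, which weighs each gene alike, was 0.39 for the 11 in water replicate 2, against −0.22 to 0.14 in the others. For the 5 it was −0.40 there, against −0.28 to 0.40. Of 7 measured genes of later muscle and neural differentiation, elav, a neuronal gene, was at 87.5 in that library and at 266 to 614 in the others. The other 6 were at 1.29 to 35.4 in all libraries, and the centred median of the 7 was −0.14 in water replicate 2, within the −0.20 to 0.40 of the others. None of these genes was at 0 in all libraries, and the part of stage in the values of the members was not tested.

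**Figure D3:**
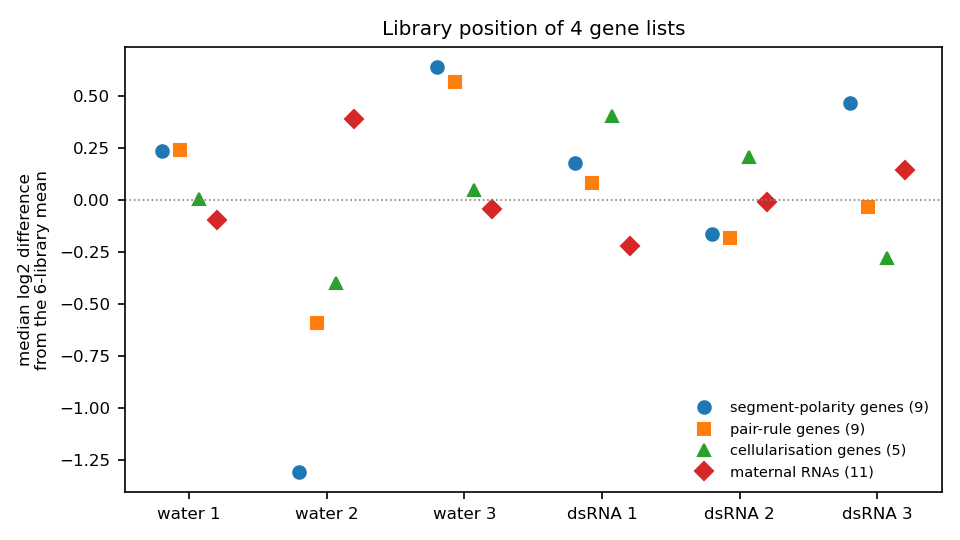
Median over each of 4 gene lists of the log2 level centred on each gene's own mean (vertical axis), by library. In water replicate 2 the segment-polarity genes lie at −1.31 and the pair-rule genes at −0.59, below their places in every other library. The maternal RNAs lie at 0.39 there, above their places in the others. The pair-rule list includes the targets eve and run.

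Leaving out water replicate 2 turned the sign of 4 of the 9 members. The log2 fold changes of ptc, ci, gsb and nkd went from 0.40, 0.21, 0.87 and 0.22 to −0.16, −0.77, −0.27 and −0.85. Then 7 of 9 members were below 0 and 2 of 9 (hh and inv) above it, and the median was −0.35, against −0.026 over all genes. None of the 9 passed the adjusted threshold without it either, where 0.0441% of all genes did. The unadjusted limma p was then under 0.05 for 2 of 9 (hh higher, ci lower), against 3.63% of all genes. Samples with the same replicate number deviated together, and with the number as a block hh stood at the same 1.29 with an SE of 0.35 (limma unadjusted p = 0.0156, adjusted p = 0.898). With the block 0 of 9 members passed, against 0% of all genes, and 1 of 9 (hh) had an unadjusted p under 0.05, against 3.84%.

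Within the same library, the share of hh against other members needs no scaling between libraries. For each 100 counts of en, hh had 45.7, 38.1 and 57.8 counts with water and 181, 90.7 and 126 with dsRNA. The means were 47.2 ± 9.92 and 133 ± 45.8 (SD, n = 3 each), and the groups did not overlap. Among all other genes, 2.95% had a log2 level relative to en that did not overlap between groups, and hh is one of them. Per 100 counts of ptc, hh had 0.843, 1.21 and 1.15 with water and 1.92, 1.97 and 2.06 with dsRNA. The means were 1.07 ± 0.196 and 1.98 ± 0.070.

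Relative to wg and mid the groups also did not overlap. Per 100 counts of wg, hh had 14.7, 12.8 and 25.4 with water and 60.6, 46.6 and 31.1 with dsRNA. Per 100 counts of mid it had 31.7, 20.3 and 36.0 with water and 245, 87.3 and 71.0 with dsRNA. Of all 36 pairs among the 9 members, 4 did not overlap, and all 4 contained hh. For each of the 4 the exact two-sided permutation test gave p = 0.1, the smallest that 3 against 3 libraries allow, and p = 0.72 after Benjamini-Hochberg adjustment over the 36 pairs. Relative to hh, 75.4% of all other genes did not overlap between groups, so 4 of its 8 pairs is no more than hh shows against genes in general.

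**Figure D4:**
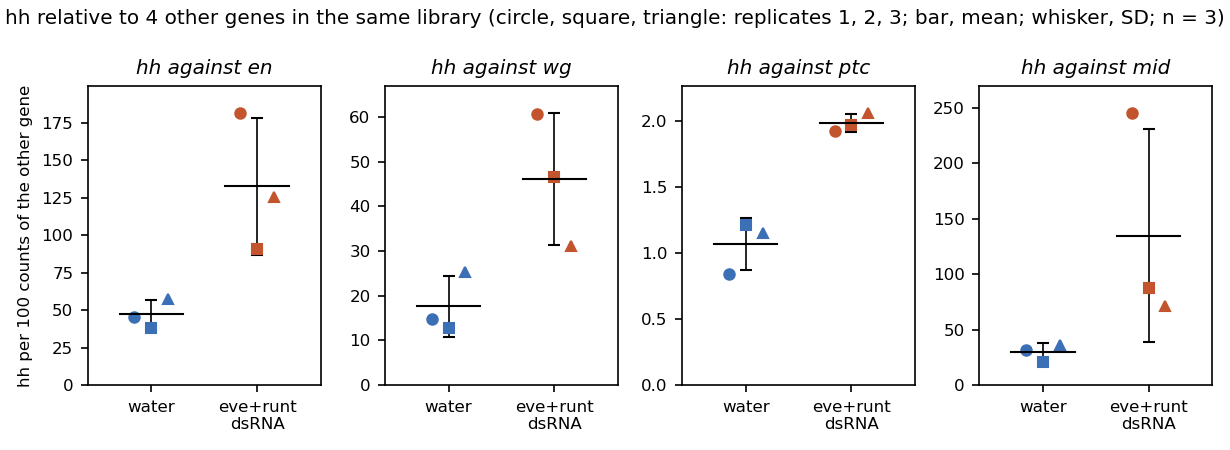
Normalised counts of hh for each 100 counts of en, wg, ptc or mid in the same library (vertical axes, from 0); bars are means and whiskers SD (n = 3). In all 4 panels the dsRNA libraries lie above the water libraries, and against ptc they lie between 1.92 and 2.06.

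Corrected for exon length, the members covered a wide range of levels. In water, normalised counts per kb of exon were 1145 ± 624 for ptc, 904 ± 686 for ci, 292 ± 225 for nkd, 122 ± 34.5 for wg, 72.8 ± 26.0 for mid, 47.5 ± 18.7 for en, 39.3 ± 30.0 for gsb, 27.8 ± 16.3 for hh and 4.53 ± 0.743 for inv (SD, n = 3 each). Neighbours in this order had overlapping ranges, except hh and inv. After dsRNA ptc, ci, nkd and wg kept the first 4 places, at 1330 ± 222, 765 ± 260, 252 ± 147 and 115 ± 37.8 per kb. There the ranges of ptc and ci, and of ci and nkd, did not overlap. Within each of the 6 libraries the order was the same in both groups. Counts of ptc were 1.09 to 2.81 times those of ci, and counts of ci 2.71 to 4.62 times those of nkd. The lowest water levels of ci and nkd, 161 and 44.2 per kb, were those of water replicate 2. The order below the first 4 places after dsRNA was gsb, hh, mid, en and inv, at 65.7 ± 64.3, 61.2 ± 8.97, 47.2 ± 23.0, 41.1 ± 8.11 and 5.36 ± 1.03 per kb. Among neighbours in these lower places, en and inv alone had ranges that did not overlap. The level per kb of hh thus stood below that of en in every water library, and the ranges of hh (52.5 to 70.5) and en (33.0 to 49.2) did not overlap after dsRNA.

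Likeness of pattern was measured as the root-mean-square difference between log2 profiles, each centred on its own mean over the 6 libraries, among genes with a mean of at least 50 counts. The genes most like hh were Tollo (0.15), CG2930 (0.17) and pxb (0.23). Tollo encodes a leucine-rich-repeat surface receptor of the Toll family. Its counts were 2082, 860 and 2743 with water and 5387, 3994 and 4212 with dsRNA, with no overlap. Tollo was picked for its likeness to hh in these same libraries, so sharing this with hh is no separate finding. Among members, ptc came nearest to hh, at place 56 of 6725 genes (0.48). The genes most like en were Art7 (0.19), RabGGTa (0.20) and Cog6 (0.20), and wg was at place 622 (0.34). Those most like wg were CG4676 (0.06), Coq9 (0.09) and NK7.1 (0.09), and en was at place 990. Without water replicate 2, none of the genes named for en or wg stayed among the 3 nearest, while Tollo and CG2930 stayed for hh. None of hh, en and wg had another member among its 3 nearest genes in these 6 libraries. The gene inv fell below the minimum of 50 counts, so it was not compared and could not appear.

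Components of both signalling pathways outside the 10 genes were taken from a list of known roles. Of the 17 measured Hedgehog pathway genes 0 passed in either direction, 12 were above 0, and their median log2 fold change was 0.05, against −0.0015 over all genes. Among those with a mean of at least 50 counts the widest changes were those of boi (−0.25 ± 0.18) and ihog (−0.24 ± 0.33), which encode Hedgehog co-receptors, and slmb (−0.23 ± 0.15), which encodes a ubiquitin-ligase subunit that acts on Ci. Of the 23 measured Wnt pathway genes 0 passed in either direction, 11 were above 0, and the median was −0.0015. Notum, whose secreted enzyme inactivates Wnt ligands, did not pass (limma adjusted p = 0.999) and was the only gene of the 40 with an unadjusted p under 0.05, which 2.27% of all genes had. It had 1887, 1718 and 1732 counts with water and 3771, 3556 and 2192 with dsRNA, with no overlap. Its log2 fold change was 0.80 ± 0.20 (SE) and stood at 0.77 without water replicate 2. Wnt5 was also higher in every dsRNA library (0.07 ± 0.07), and Su(fu) of the Hedgehog list was lower in every one (−0.12 ± 0.06). Over all genes, 2.99% were higher and 3.36% lower without overlap, so these genes are no result about the pathways. The Wingless receptor gene fz2 (−0.34 ± 0.54) and Apc (−0.28 ± 0.27), part of the complex that destroys Armadillo, overlapped between groups.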

How the data were processed

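The deposited table holds a signal per gene: per the file headers 1 column a library, where all values, less 1, were whole multiples of a step fixed by the library (100% of values within 0.01 read), so reads had been divided by a size factor and 1 added by the authors. The submitters' processing notes name TopHat2 2.0.9, Bowtie2, HTSeq, DESeq and the build dm3. The annotation release and any strand setting were not given in the sources used here. There were 0 columns of other samples. Rows naming no gene were left out: 12.4% to 14.8% of reads aligned to several places, 0.72% to 0.75% were ambiguous and 4.32% to 4.91% fell outside genes.

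Log2(normalised count + 1) was fitted with limma 3.58.1 (trend, robust) in R 4.3.3, dsRNA against water, over 9073 genes (minimum mean of 1, which removed 0 genes), with Benjamini-Hochberg adjustment and a threshold of 0.05; the script was tested on simulated data. Alternatives were another pseudocount, filter, scaling or variance prior, limma-voom, a replicate block and leaving out each library. Names came from RefSeq (Release 6) by CG number, 9027 of 9073 matched, and lengths from BDGP6. Groups and replicate numbers came from the titles. The labels do not tell whether the replicates are separate injections, so p-values speak only to the spread between these samples. Deviations of same-numbered libraries from their group means correlated across genes at 0.24, 0.37 and 0.22 and those of other pairs at −0.38 to 0.11, so the numbers were taken to pair the libraries, from the data alone. Within groups, pairs of libraries differed beyond sampling noise (chi-square per degree of freedom of 15.8 to 80.5). Named genes were all members, the targets, the 3 genes most like en, wg and hh, and Wnt4, Wnt6 and H15. Also named were the 3 widest changes of each pathway list with a mean of at least 50, the pathway genes without overlap and single genes of the stage lists. Members and lists were chosen with earlier results of these data known. No sequence was used.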

Additional observations from a re-analysis of the deposited data

How the results depend on the processing

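The number of genes past the adjusted threshold was 1 in the chosen limma fit, 0 without the trend and robust options, 0 with the replicate block, and 0 to 4 on leaving out each library in turn. It was 1 with a pseudocount of 5, a minimum mean of 50, upper-quartile or TMM scaling, and limma-voom, which was chosen after seeing the data. Of the members and of the 40 pathway genes, 0 passed under each of these alternatives. The log2 fold change of hh was 0.84 to 1.72 over 13 alternatives, with a limma adjusted p of 0.735 to 0.9999. The unadjusted p was under 0.05 in 10 of 13. These include all fits that kept the 6 libraries, which gave nearly the same estimate, 1.22 to 1.32, and so are weak checks. Leaving out water replicate 1, dsRNA replicate 1 and dsRNA replicate 3 in turn gave an unadjusted p of 0.0547, 0.0708 and 0.0665. Leaving out water replicate 2, water replicate 3 and dsRNA replicate 2 gave 0.0198, 0.00249 and 0.0436. The log2 fold change of mid was −1.04 to −0.26 and that of inv 0.09 to 0.38. On leaving out each library, en ran from −0.46 to 0.13, wg from −0.35 to 0.050, ptc from −0.16 to 0.77, ci from −0.77 to 0.84, gsb from −0.27 to 1.54 and nkd from −0.85 to 0.87. The sign of nkd also turned with limma-voom, to −0.029. The cause was not tested beyond the values given for water replicate 2. With the longest transcript as its length, inv stood at 5.61 counts per kb in water. Of the 9 genes named as most alike, 2 (Tollo and CG2930, both for hh) were shared without water replicate 2 and 5 with a minimum of 200. DESeq2 and edgeR, planned for whole reads, were not run. Few reads limit inv, hh and gsb, and to a lesser degree en and mid, at 63 to 187 and 100 to 300 reads a library.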
